A study of Mus musculus with 20 samples.

Results

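The 10 genes described here encode chemokines that draw monocytes, neutrophils and lymphocytes into inflamed tissue: Ccl2, Ccl3, Ccl4, Ccl5, Ccl6, Ccl7, Ccl9, Cxcl2, Cxcl16 and Xcl1. They were chosen by symbol from a table of 59311 annotated genes, and all 10 were found and were among the 17248 genes that passed the filter on low values, a mean of at least 10 normalized counts in 1 or more of the 4 groups. RNA was sequenced from monocyte-derived macrophages (MoMac) of the fibrotic mouse liver, sorted by flow cytometry into a Ly6C hi and a Ly6C low subset. The libraries came from 10 male C57BL/6 mice, 10 to 12 weeks old at the start, and the purpose was to see how Ac-6-FP alters each subset. Every mouse received CCl4, a hepatotoxin (0.6 ml/kg), for 4 weeks, and no mouse without liver injury was sequenced among these samples. Mice 16 to 20 were given Ac-6-FP (acetyl-6-formylpterin, 0.25 mg/kg), a ligand of MR1 that does not activate MAIT cells, before the last CCl4 injection and daily for 2 days after it, and mice 11 to 15 its vehicle, DMSO in PBS. The gate took CD11b+ F4/80+ cells that were Ly6G-, CD11c- and CD3-, with about 30000 cells per library, and each liver gave both subsets. The design thus holds 5 libraries in each of 4 groups, and the 2 libraries of a mouse are paired.

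Chemokines are small secreted proteins that act through G protein-coupled receptors on leukocytes. Ccl2 and Ccl7 bind CCR2, which Ly6C hi monocytes use to leave the marrow and enter an injured liver. Ccl3, Ccl4 and Ccl5 attract monocytes, T cells and NK cells, and Ccl3 and Ccl5 bind CCR1. Ccl6 and Ccl9 are rodent ligands of CCR1, Cxcl2 calls neutrophils through CXCR2, Cxcl16 is a membrane-anchored ligand of CXCR6 on T and NKT cells, and Xcl1 is made by NK and T cells and acts on XCR1 of cross-presenting dendritic cells. Transcription of many of these genes in macrophages is induced through NF-kappaB and AP-1.

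In the mm10 coordinates of the table, 8 of the 10 genes lie on chromosome 11. Cxcl16 stands apart at chr11:70454234-70459988, on the minus strand. Ccl2 (chr11:82035575-82037452) and Ccl7 (chr11:82045710-82047521), both on the plus strand, are separated by 8.26 kb. The other cluster runs through Ccl5 (chr11:83525781-83530519), Ccl9 (chr11:83572917-83578636), Ccl6 (chr11:83587886-83593087) and Ccl3 (chr11:83647844-83649378), on the minus strand, to Ccl4 (chr11:83662584-83664682) on the plus strand. Ccl9 and Ccl6 are separated by 9.25 kb and Ccl3 and Ccl4 by 13.2 kb. Cxcl2 (chr5:90903870-90905938, plus strand) and Xcl1 (chr1:164931645-164935523, minus strand) lie elsewhere. An unnamed entry of the table spans Ccl2 and carried 0.794 to 1.12 times its value (median 0.987) in the 19 libraries with Ccl2 reads, so the reads of these entries cannot be told apart. The entries of Ccl6, Ccl9, Cxcl16 and Xcl1 also overlap another entry, with means of 49.3 (E230016K23Rik), 3.14 (unnamed), 131 (Zmynd15) and 30.7 (Gm20743) normalized counts, and no source used here states that reads were counted by strand.

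RefSeq promoter entries on GRCm38.p6, the assembly of mm10, matched 5 of the 10 genes, and the 120 bases before each RefSeq start are shown so that the start regions of members with large and small differences between the subsets can be compared. Capitals mark matches to GGNNTTTCC (part of the NF-kappaB site), TGANTCA (AP-1) or TATAAA, searched on both strands over 250 bases before the start. Each is written 5′ to 3′ on the strand of its gene.
Cxcl2 (chr5:90903779-90903898, plus strand): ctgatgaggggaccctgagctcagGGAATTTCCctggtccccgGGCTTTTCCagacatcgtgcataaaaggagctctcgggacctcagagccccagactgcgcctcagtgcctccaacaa
Ccl9 (chr11:83578637-83578756, minus strand): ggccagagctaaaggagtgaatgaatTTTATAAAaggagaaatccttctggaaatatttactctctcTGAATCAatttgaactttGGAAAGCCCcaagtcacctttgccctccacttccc
Ccl6 (chr11:83593088-83593207, minus strand): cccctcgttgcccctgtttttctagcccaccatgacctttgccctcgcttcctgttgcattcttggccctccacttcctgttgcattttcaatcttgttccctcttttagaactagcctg
Ccl3 (chr11:83649379-83649498, minus strand): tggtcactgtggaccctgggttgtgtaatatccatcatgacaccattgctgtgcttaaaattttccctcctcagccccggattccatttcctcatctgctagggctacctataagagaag
Xcl1 (chr1:164935523-164935642, minus strand): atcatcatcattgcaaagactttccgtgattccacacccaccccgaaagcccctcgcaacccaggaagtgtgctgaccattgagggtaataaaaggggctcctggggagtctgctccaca
Cxcl2 held GGNNTTTCC at -96 to -88 and at -77 to -69, counted from the RefSeq start, which for Cxcl2 lies inside the span that the deposited table gives the gene. Ccl9 held it on the other strand at -35 to -27, TGANTCA at -53 to -47, and TATAAA on both strands at -94 to -87, where the matches overlap, and again on the other strand at -224 to -219. The windows of Ccl6, Ccl3 and Xcl1 held none of these letters. Of 32851 RefSeq promoter windows of the same length, 4.93% held GGNNTTTCC, 6.75% TGANTCA and 12.4% TATAAA. A match is a description of the letters and not of binding. Ccl2, Ccl4, Ccl5, Ccl7 and Cxcl16 had no entry.

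Values are normalized counts, the reads of a gene divided by a size factor of its library, and they were not divided by gene length, so levels are compared between libraries and not between genes. The libraries held 5693049 to 18682437 reads on genes (median 13601180). Of these, the 10 chemokines took 0.365% to 0.596% in Ly6C hi and 0.667% to 1.49% in Ly6C low libraries. A count of 0 allows up to 3 reads, which is 1.87 to 6.26 normalized counts depending on the library and covers counting error only. The Ly6C low vehicle library of mouse 13 was the shallowest, with 5343 genes above 0 where the other 19 libraries had 9017 or more, and results that rest on it are given with and without it. The markers of the sort followed the labels, with 7 of 7 Ly6C hi monocyte genes higher in Ly6C hi, 4 of 8 genes of Ly6C low monocytes or macrophages lower, and 0 of 4 general macrophage and sort genes called (1 with an unadjusted limma p under 0.05, and 0 called by edgeR). Ly6c2, which encodes a Ly6C antigen, had means of 7403 ± 1691 and 688 ± 198 normalized counts in Ly6C hi and Ly6C low libraries (SD, n = 10 each), and Adgre1, the gene of F4/80, at 2693 ± 552 and 3104 ± 1890.2. Other cell types were also seen in the Ly6C low libraries. Genes of NK and T cells summed to 45427 to 102373 normalized counts per library in Ly6C low and to 0 to 954 in Ly6C hi, and 10 of the 13 tested were lower in Ly6C hi. Gzma and Prf1, granule genes of cytotoxic lymphocytes, were at 24663 ± 7735 and 4819 ± 2159 in Ly6C low, while Prf1 was at 0 in all 10 Ly6C hi libraries. Cd3d, which marks T cells, was at 0 in 4 of 10 Ly6C low libraries. In sorted bulk samples, fewer cells of a type and less RNA per cell cannot be told apart.

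Most of the chemokines differed between the subsets. On the log2 scale, 8 of the 10 genes differed between Ly6C hi and Ly6C low MoMac of the same mouse (limma on within-mouse differences, n = 10 mice, p adjusted over all genes tested under 0.05), where 5.19% of all genes tested did. Ccl2 and Ccl7 were higher in Ly6C hi, a direction called in 1.76% of all genes. Ccl4, Ccl5, Ccl6, Cxcl2, Cxcl16 and Xcl1 were lower in Ly6C hi, a direction called in 3.44% of all genes. Over all genes 303 were called higher and 593 lower, a split that became 979 and 723 in a fit with genes detected per library as covariate. The libraries of the subsets did not overlap in 4 of the 10, Ccl2, Ccl4, Ccl5 and Cxcl16, compared with 1.4% of all genes. The median log2 difference, Ly6C hi minus Ly6C low, was -1.37 over the 10 chemokines and -0.03 over all genes. Ccl3 and Ccl9 missed the threshold. EdgeR on the recovered reads called 8 of the 10 and 584 of all 17248 genes, and 6 of the 10 and 467 of all genes with mouse 15 left out, whose Ly6C hi reads were recovered less surely.

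**Figure D1:**
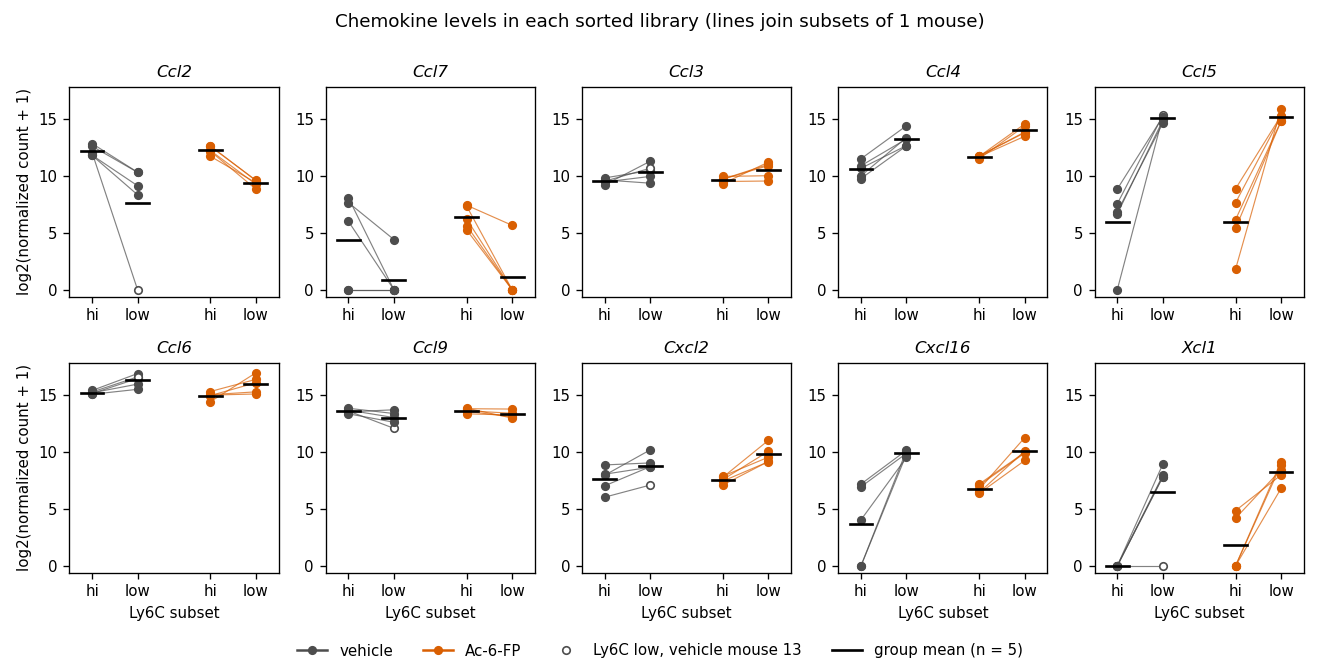
Level of each chemokine, as log2(normalized count + 1), in the Ly6C hi and Ly6C low library of each mouse (lines join the libraries of 1 mouse, grey for vehicle and orange for Ac-6-FP, black bars are group means, n = 5, and the open point is the Ly6C low library of mouse 13). From Ly6C hi to Ly6C low, lines fall for Ccl2 and rise for Ccl4, Ccl5, Ccl6, Cxcl2 and Cxcl16 in all 10 mice, while Ccl7 falls in 8 and Xcl1 rises in 9, the other lines of that pair being flat at 0.

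The CCR2 ligands were higher in the Ly6C hi subset. Ccl2, the main monocyte attractant, was listed in Ly6C hi vehicle libraries of mice 11 to 15 at 7306, 6222, 4228, 3594 and 3554 normalized counts, and in those of Ac-6-FP mice 16 to 20 at 6156, 4781, 6364, 3375 and 4604. In Ly6C low the values were 1277, 1269, 0, 559 and 321 with vehicle and 782, 615, 769, 669.9 and 455 with Ac-6-FP. The lowest Ly6C hi library lay above the highest Ly6C low library, and the 0 was that of mouse 13. The ratio of the means was 7.47, and the within-mouse log2 difference was 3.76 (SE 0.80, adjusted p = 0.0144), positive in 10 of 10 mice (exact sign-flip test, p = 0.00195, the smallest that 10 mice allow). Without mouse 13 the log2 difference was 2.84 (adjusted p = 7.18e-07). Leaving out mouse 15 or mouse 20 instead gave 3.80 and 3.81 with adjusted p-values of 0.0546 and 0.0515, so that the call then ended with mouse 13 still in the fit. It also ended with a pseudocount of 0.1 (adjusted p = 0.0585).

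Ccl7, the neighbour of Ccl2 and also a ligand of CCR2, was far scarcer in reads. It was listed in Ly6C hi libraries at 200.01, 0, 0, 269 and 63.3 normalized counts with vehicle and at 72.4, 170.3, 48.1, 37.0 and 161 with Ac-6-FP. In Ly6C low it was above 0 in mouse 11 (20.2) and mouse 17 (49.4) and at 0 in the other 8 libraries. Vehicle mice 12 and 13 were at 0 in both subsets, and the subsets therefore overlapped. Their Ly6C hi libraries had few genes above 0, 9017 and 9749, as did that of mouse 14 with 9495. The log2 difference of 4.35 (SE 0.93, adjusted p = 0.0152) was positive in the 8 mice with any reads (exact sign-flip test, p = 0.00781). Since 8 of 10 Ly6C low libraries were at 0, this difference depends on the pseudocount, at 2.398 with a pseudocount of 10, 6.34 with 0.1 and 7.25 by edgeR. It was called neither without mouse 15 (adjusted p = 0.0502), mouse 16 (0.0510) or mouse 20 (0.0525) nor by edgeR with mouse 15 left out (0.0951).

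Ccl3 and Ccl4, adjacent genes for inflammatory chemokines that are induced together in activated macrophages and NK cells, were both higher in Ly6C low by their means, but to different extents. Ccl4 was listed in Ly6C hi at 2897, 1894, 869, 1624 and 1026 normalized counts with vehicle and at 2903, 3300.4, 3459, 3438 and 3346 with Ac-6-FP. In Ly6C low it was listed at 21635, 9681, 6363, 6458 and 10535 with vehicle and at 11403 to 24166 with Ac-6-FP (mice 16 to 20: 21366, 11403, 14138, 14757 and 24166). No Ly6C hi library reached the lowest Ly6C low library. The mean was 5.68 times higher in Ly6C low, and the log2 difference of -2.51 (SE 0.16, adjusted p = 6.62e-07) was negative in 10 of 10 mice (exact sign-flip test, p = 0.00195). It was called under every alternative tried, with adjusted p-values of at most 0.000294.

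Ccl3 was listed in Ly6C hi at 591, 901, 738, 706 and 796 normalized counts with vehicle and at 837, 724, 987, 834 and 639 with Ac-6-FP. Its Ly6C low values were 2489, 1417, 1622, 986 and 654 with vehicle and at 2063, 747, 1032, 1914 and 2364 with Ac-6-FP. The Ly6C low libraries of mice 14, 15 and 17 lay within the Ly6C hi range, and in mouse 15 the Ly6C hi library was the higher. The mean was 1.97 times higher in Ly6C low and the log2 difference was -0.86 (95% interval -1.42 to -0.29), negative in 9 of 10 mice. The adjusted p was 0.0939, over the threshold, with an exact sign-flip p of 0.00977. It was called with array weights (adjusted p = 0.0193) and without the replicate block (0.0472).

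Ccl5, which attracts T cells and NK cells and is itself a gene of those lymphocytes, had the largest fitted difference of the 10 by limma (by edgeR that of Xcl1 was larger, -9.19 against -8.49). It was listed in Ly6C hi at 100.01, 113, 185, 458 and 0 normalized counts with vehicle and at 2.50, 70.4, 465, 41.2 and 199 with Ac-6-FP. In Ly6C low it was listed at 30057, 25215, 40388, 37384 and 37798 with vehicle and at 61213, 28705, 39827, 28301 and 38335 with Ac-6-FP. The lowest Ly6C low library was more than the sum of all Ly6C hi libraries, and the ratio of the means was 225. The log2 difference was -9.14 (SE 0.83, adjusted p = 1.77e-05), negative in 10 of 10 mice, and was called under every alternative tried (adjusted p of at most 0.000277). Mouse 13 was not low for this gene in Ly6C low, at 40388.

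Xcl1, a product of activated NK and T cells, followed the same direction. In Ly6C hi it was at 0 in all 5 vehicle libraries and in 3 of the 5 Ac-6-FP libraries, with 27.8 normalized counts in mouse 17 and 17.1 in mouse 20. Its Ly6C low values were 228, 219, 0, 486 and 246 with vehicle and at 472, 251, 571, 110.5 and 349.7 with Ac-6-FP. The 0 of mouse 13 was the one Ly6C low library within the Ly6C hi range. The log2 difference was -6.47 (SE 0.96, adjusted p = 0.00104), negative in 9 of 10 mice and 0 in mouse 13 (exact sign-flip test, p = 0.00391), and -7.19 without mouse 13 (adjusted p = 0.000143). With 8 of 10 Ly6C hi libraries at 0 its size depends on the pseudocount, at -4.10 with a pseudocount of 10, -8.81 with 0.1 and -9.19 by edgeR, and it was called in each of these. Genes of NK and T cells moved with Ccl5, Xcl1 and Ccl4, with summed levels of 0 to 954 in Ly6C hi and 45427 to 102373 in Ly6C low libraries, and 5 of the 14 were at 0 in all Ly6C hi libraries. Their part in these results was not tested.

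Of the CCR1 ligands Ccl6 and Ccl9, neighbours on the minus strand, Ccl6 was called between the subsets and Ccl9 was not. Ccl6 was listed in Ly6C hi at 36019, 43339.5, 39439, 37597 and 34395 normalized counts with vehicle and at 31666, 32735, 40698, 33554 and 21814 with Ac-6-FP. In Ly6C low it was listed at 90074, 121339, 98967, 63789 and 46468 with vehicle and at 69462, 34958, 85032, 39846 and 126740.0 with Ac-6-FP. The Ly6C low libraries of mice 17 and 19 lay within the Ly6C hi range, but in each of the 10 mice Ly6C low was the higher. The log2 difference was -1.04 (SE 0.19, adjusted p = 0.00562), a ratio of means of 2.21, and the call ended with a variance prior without a trend (adjusted p = 0.104).

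Ccl9 was listed in Ly6C hi at 11740.5, 14670.2, 12408, 10470.5 and 13116 normalized counts with vehicle and at 12214, 10461, 14274, 14740.0 and 12576 with Ac-6-FP. Its Ly6C low values were 13383, 10649.8, 4326, 6273 and 8331 with vehicle and at 8657, 9700.4, 13979, 8073 and 10828 with Ac-6-FP. The subsets overlapped, with the Ly6C low library of mouse 13 lowest of all. The log2 difference was 0.49 (95% interval 0.19 to 0.80, adjusted p = 0.0694), positive in 9 of 10 mice (exact sign-flip test, p = 0.00977), and 0.38 without mouse 13 (adjusted p = 0.0679). It crossed the threshold with quantile normalization (adjusted p = 0.0172), with genes detected per library as covariate (0.0197) and when genes were kept from a group mean of 100 upwards (0.0498).

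Cxcl2, the neutrophil attractant, was listed in Ly6C hi at 248, 465, 64.4, 129.5 and 264 normalized counts with vehicle and at 234, 137, 191, 174 and 219.8 with Ac-6-FP. In Ly6C low it was listed at 1162, 525, 136, 418 and 405 with vehicle and at 746, 574, 1069, 565 and 2088 with Ac-6-FP. Ly6C low was the higher in each of the 10 mice, although the Ly6C low libraries of mice 13, 14 and 15 lay below the highest Ly6C hi library, that of mouse 12. The ratio of the means was 3.62 and the log2 difference -1.69 (SE 0.34, adjusted p = 0.0104). Genes of neutrophils summed to 9154 to 15701 normalized counts in Ly6C hi and 10612 to 133307 in Ly6C low libraries, and 4 of the 10 were lower and 1 higher in Ly6C hi. Their part in the result was not tested.

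Cxcl16, which is made by macrophages and also serves as a scavenger receptor, was listed in Ly6C hi at 122, 0, 0, 15.5 and 144 normalized counts with vehicle and at 86.2, 145, 106, 81.6 and 134 with Ac-6-FP. Its Ly6C low values were 942, 1120.0, 897, 734 and 1139.9 with vehicle and at 1086, 995, 2460.1, 609.9 and 956 with Ac-6-FP. The lowest Ly6C low value, 609.9 in mouse 19, was above every Ly6C hi value. The ratio of the means was 13.1 and the log2 difference -4.80 (SE 0.82, adjusted p = 0.00327), negative in 10 of 10 mice. The vehicle mice 12 and 13, at 0 in Ly6C hi, gave the most negative differences. The Ly6C hi libraries of mice 12, 13 and 14 had 9017, 9749 and 9495 genes above 0. The others of that subset had 11096 or more, and the part of this in the Cxcl16 values was not tested. Dendritic cell genes, 3 of 7 of them lower in Ly6C hi, summed to 83.8 to 535 normalized counts in Ly6C hi and 7705 to 19404 in Ly6C low libraries, and the NK and T cell genes given above moved in the same direction. Their part in the Cxcl16 result was not tested. EdgeR called it with all mice (adjusted p = 0.0274) and not with mouse 15 left out (0.0554).

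**Figure D2:**
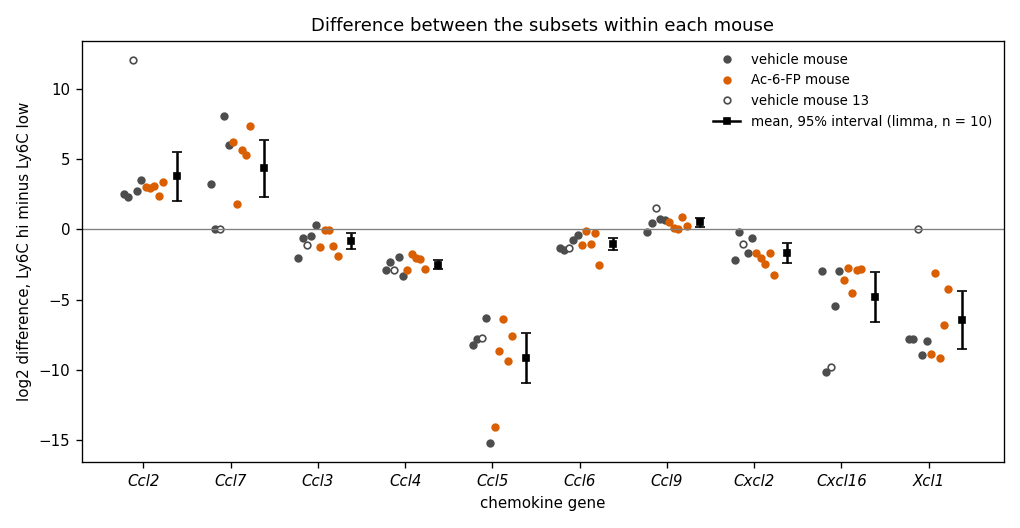
Within-mouse log2 difference, Ly6C hi minus Ly6C low, of each chemokine gene (points are single mice, grey for vehicle, orange for Ac-6-FP and open for mouse 13) with the limma mean and its 95% interval (squares, n = 10 mice). The intervals of Ccl2, Ccl7 and Ccl9 lie above 0 (Ccl9 was not called), Ccl5 is the most negative at -9.14, and mouse 13 stands apart for Ccl2 and Xcl1, which were at 0 in its Ly6C low library.

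Between the treatments, Ccl4 in the Ly6C hi subset was the one chemokine whose libraries did not overlap. Its 5 Ac-6-FP libraries, 2903 to 3459 normalized counts, all lay above the 5 vehicle libraries, 869 to 2897, although the lowest of the former exceeded mouse 11 of the latter by few counts. The means were 3289 ± 225 (SD, n = 5) and 1662 ± 808 (SD, n = 5), a ratio of 1.98, and the log2 difference was 1.12 (95% interval 0.44 to 1.80). The exact permutation p was 0.00794, the smallest that 5 mice against 5 allow. The limma p adjusted over all genes was 0.375, so the gene was not called. Of the 10 chemokines, 0 were called in Ly6C hi by limma or by edgeR, where limma called 0.0754% of all genes, 1 of the 10 had an unadjusted limma p under 0.05 and 2 of the 10 an unadjusted edgeR p under 0.05, where 1506 and 1541 of all 17248 genes did. Groups that did not overlap were found in 1 of the 10 chemokines and in 1.35% of all genes. Ccl4 reached the threshold when mouse 11, the highest vehicle library, was left out (log2 difference 1.35, adjusted p = 0.0494). In a fit with genes detected per library as covariate the difference was 0.83 (adjusted p = 0.973), and by edgeR 0.99 (adjusted p = 0.487). Over all alternatives its adjusted p ran from 0.0494 to 0.973. The number of genes above 0 was itself higher with Ac-6-FP in Ly6C hi, 11096 to 15587 against 9017 to 14606 with vehicle, and NK and T cell genes summed to 155 to 954 against 0 to 689. Their part in the difference was not tested.

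**Figure D3:**
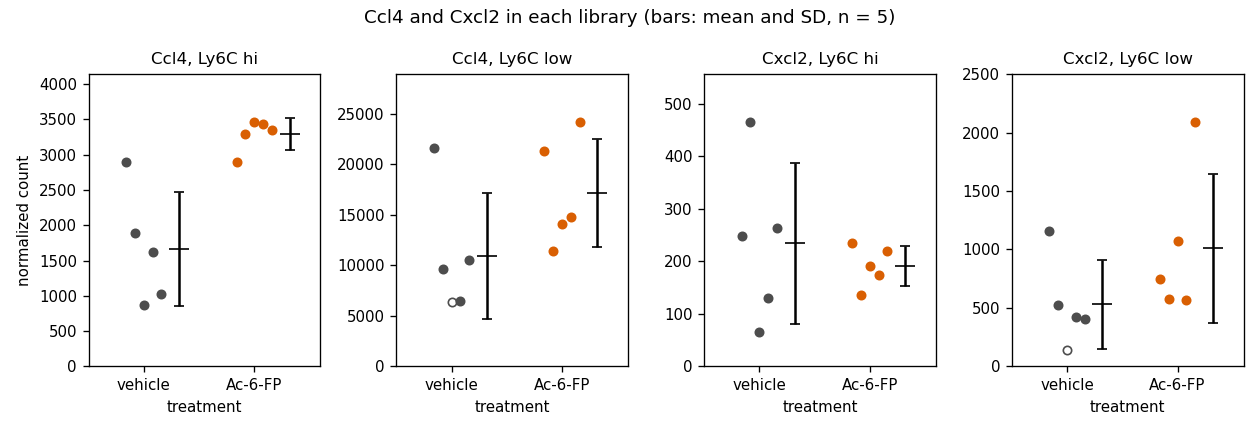
Normalized counts (linear scale, a separate axis from 0 in each panel) of Ccl4 and Cxcl2 in the vehicle and Ac-6-FP libraries of each subset, with each point a library, bars the mean and SD (n = 5) and the open point the Ly6C low library of mouse 13. Ccl4 in Ly6C hi is between 2903 and 3459 with Ac-6-FP and between 869 and 2897 with vehicle, and the groups overlap in the other panels.

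The other chemokines of the Ly6C hi subset gave differences within the spread between mice. Ccl2 was at 5056 ± 1228 normalized counts with Ac-6-FP and 4981 ± 1694 with vehicle (SD, n = 5 each), a log2 difference of 0.05 with a 95% interval of -0.53 to 0.63. Ccl3 gave 0.11 (-0.23 to 0.44) and Ccl9 0.04 (-0.23 to 0.31), and these intervals leave out a change of 1 or more on the log2 scale in either direction. Ccl6 was the one abundant member that was lower, at 32093 ± 6754 against 38158 ± 3448, with a log2 difference of -0.27 (-0.62 to 0.08, exact permutation p = 0.0952). Cxcl2 gave -0.03 (-1.13 to 1.08). For the genes near 0 in Ly6C hi the intervals were wide. Cxcl16 was above 0 in 5 of 5 Ac-6-FP and 3 of 5 vehicle libraries, with a log2 difference of 3.13 (-0.37 to 6.63, exact permutation p = 0.135). Ccl7 gave 2.02 (-2.03 to 6.06), with 2 vehicle libraries at 0, although its mean was lower with Ac-6-FP (97.7 against 106 normalized counts). Xcl1 gave 1.81 (-0.57 to 4.18) and Ccl5 0.00 (-4.21 to 4.21), and these 4 values cannot be read as a change or as its absence. The median log2 difference was 0.08 over the 10 and 0.35 over all genes.

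In Ly6C low MoMac, 0 of the 10 chemokines were called by limma or edgeR, where limma called 0.0522% of all genes, and 0 of the 10 had an unadjusted p under 0.05 in either, where 1605 genes by limma and 1614 by edgeR did. Treatments overlapped in each of the 10, where 1.5% of all genes tested did not overlap. Ccl4 was at 17166 ± 5358 normalized counts with Ac-6-FP and 10934 ± 6268 with vehicle (SD, n = 5 each), with a log2 difference of 0.75 (95% interval -0.04 to 1.55, exact permutation p = 0.0873), and 0.60 without mouse 13. Mouse 11 was the high vehicle library for this gene, at 21635. Cxcl2 was at 1009 ± 637 against 529 ± 382, a log2 difference of 1.05 (-0.25 to 2.35, exact permutation p = 0.135) that was 0.64 without mouse 13. Ccl5 was at 39276 ± 13366 against 34168 ± 6310.2, a log2 difference of 0.16 (-0.34 to 0.67). Ccl6 was at 71207 ± 37335 against 84128 ± 29463, a log2 difference of -0.32 (-1.21 to 0.56), the one negative value of the 10. The remaining values were 0.33 for Ccl9, 0.25 for Ccl7, 0.19 for Ccl3 and 0.19 for Cxcl16, and without mouse 13 they were 0.11, 0.029, 0.27 and 0.17. In a fit with genes detected per library as covariate, Ccl4 was at 0.29, Cxcl2 at 0.39, Ccl9 at 0.047 and Ccl3 at 0.018 on this scale. Genes detected had a median of 14084 with Ac-6-FP and 10379 with vehicle in Ly6C low, and their part in these values was not tested. Ccl2 and Xcl1 gave 1.72 and 1.76, which rested on the library of mouse 13 at 0 for both, and -0.19 and 0.13 without it. The median over the 10 was 0.29, and over all genes 0.91.

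**Figure D4:**
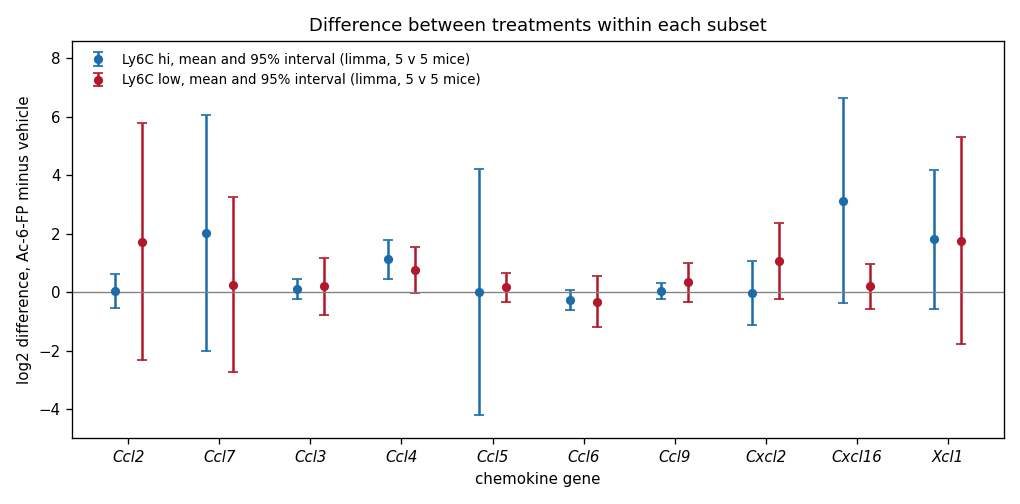
Log2 difference, Ac-6-FP minus vehicle, of each chemokine gene in Ly6C hi (blue) and Ly6C low (red) MoMac, with the limma mean and 95% interval (5 against 5 mice). Of the 20 intervals, that of Ccl4 in Ly6C hi, 0.44 to 1.80, leaves out 0, and the widest belong to genes with libraries at 0.

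Whether the subsets responded unequally to Ac-6-FP was tested by setting the paired log2 differences (Ly6C hi minus Ly6C low) of 5 Ac-6-FP mice against those of 5 vehicle mice. None of the 10 chemokines was called (limma, 0 of 10, and 0 of 10 with an unadjusted p under 0.05), edgeR also called 0 of 10, and 0% of all genes were called, with 840 genes at an unadjusted p under 0.05. Cxcl2 was lower in Ly6C hi than in Ly6C low by 2.23 ± 0.65 (SD, n = 5, log2 scale) with Ac-6-FP and by 1.15 ± 0.82 with vehicle, a difference of -1.08 (95% interval -2.46 to 0.31, exact permutation p = 0.0635). Cxcl16 gave 2.94 (-0.32 to 6.19, exact permutation p = 0.0952), through the vehicle mice 12 and 13 at 0 in Ly6C hi. For Ccl4 the difference between subsets was 0.36 (-0.30 to 1.03, exact permutation p = 0.294), so the difference between treatments was not shown to differ between the subsets for this gene. Ccl6 gave 0.05 (-0.83 to 0.93) and Ccl9 -0.29 (-0.90 to 0.32). Without mouse 13 the values were -0.014 for Ccl6, -0.073 for Ccl9, -1.06 for Cxcl2, 2.05 for Cxcl16 and 0.32 for Ccl4.

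Receptors that bind these chemokines were read from the same fits. Of 9 genes, 7 passed the filter, 2 were higher and 2 lower in Ly6C hi. Ccr2, the receptor of Ccl2 and Ccl7, was at 17035 ± 3621 normalized counts in Ly6C hi and 6777 ± 2612 in Ly6C low (SD, n = 10 each), a log2 difference of 1.40 (adjusted p = 0.00108), so that the ligands and their receptor were higher in the same subset. Ccr1, the receptor of Ccl6 and Ccl9, which Ccl3 and Ccl5 also bind, was at 5175 ± 1498 and 2563 ± 799, a log2 difference of 1.03 (adjusted p = 0.00157). Of these ligands, Ccl5 and Ccl6 were called lower in Ly6C hi, and Ccl3 and Ccl9 were not called. Ccr3, a receptor of eosinophils and basophils that binds Ccl5 and Ccl7, was at 0 in all 10 Ly6C hi libraries and at 5982 ± 5396 in Ly6C low (adjusted p = 7.69e-05), and Cxcr2, the receptor of Cxcl2, was at 4.84 ± 15.3 and 371 ± 425 (adjusted p = 0.00601). Basophil and mast cell genes summed to 0 to 74.5 in Ly6C hi and 1021 to 15077 in Ly6C low libraries, 5 of 5 lower in Ly6C hi, and their part in the Ccr3 result was not tested. Cxcr6 and Xcr1 were at 0 in 7 and 6 of the 10 Ly6C hi libraries, and neither was called between the subsets by limma. With Ac-6-FP, 0 of the 7 were called in either subset by limma or edgeR, with 2 at an unadjusted limma p under 0.05 in Ly6C hi and 0 in Ly6C low. Of all 17248 genes, 1506 and 1605 had such a p.

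Of 27 other chemokine ligands in the table, 13 passed the filter and 2 were called between the subsets, both lower in Ly6C hi, and edgeR called 1. With Ac-6-FP, 0 were called by limma or edgeR and 0 had an unadjusted p under 0.05 in either subset. Ccl22, a ligand of CCR4 made by dendritic cells and macrophages, was above 0 in 1 of 10 Ly6C hi libraries (77.5 normalized counts) and at 809 ± 793 (SD, n = 10) in Ly6C low (adjusted p = 0.000978). Ccl17, which shares that receptor, was at 0 in all 10 Ly6C hi libraries and at 147 ± 157 in Ly6C low (adjusted p = 0.00520). Of the dendritic cell genes, whose sums stand beside Cxcl16, Itgax, the gene of CD11c, was at 0 in all 10 Ly6C hi libraries (adjusted p = 8.20e-05), and their part was not tested. The ligands of CXCR3, Cxcl9 and Cxcl10, were at 62.6 ± 117 and 174 ± 144 in Ly6C hi and at 28.3 ± 50.5 and 217 ± 306 in Ly6C low, and neither was called. Pf4 and Ppbp, platelet chemokines, were at 209 ± 125 and 426 ± 233 in Ly6C hi and 284 ± 156 and 508 ± 417 in Ly6C low, and neither was called. Ccl24, Ccl25 and Cxcl3 also exceeded a mean of 100 in 1 or more groups and were not called.

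Genes that induce chemokines, or are induced beside them, were read from the same fits. Of 10 inflammatory regulators tested, 7 had an unadjusted limma p under 0.05 between the subsets (5 by edgeR), where 2888 of all 17248 genes did (2084 by edgeR), and their median log2 difference was -1.56. The call adjusted over all genes was made for 1 of them by each tool. In limma this was Nfkb1, which encodes a subunit of NF-kappaB, at 699 ± 276 normalized counts in Ly6C hi and 1881 ± 677 in Ly6C low (SD, n = 10 each, log2 difference -1.46, adjusted p = 0.00384). Nfkbia, the inhibitor of NF-kappaB, gave -0.72 (adjusted p = 0.0764). Il1b and Tnf, the cytokines that induce Ccl2 and Cxcl2, gave -0.65 and -2.87 (adjusted p = 0.787 and 0.293). Of 7 immediate early genes tested, which report handling as well as activation, 0 were called between the subsets by limma or edgeR, with 3 at an unadjusted p under 0.05 by each. With Ac-6-FP, 0 of the 17 genes of these lists were called by either tool in either subset, with 2 at an unadjusted limma p under 0.05 in Ly6C hi and 5 in Ly6C low. Of all 17248 genes, 1506 and 1605 had such a p. By edgeR it was reached by 0 in Ly6C hi and by 1, an immediate early gene, in Ly6C low. Fos gave a difference of 0.37 (adjusted p = 0.148) and Dusp1 -0.76 (adjusted p = 0.0519) between the subsets.

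The genes whose pattern was most like that of a member were sought among 3542 genes above 0 in the 19 libraries other than the Ly6C low vehicle library of mouse 13. Genes at 0 in any of these libraries could not be found by the search. These include 5 of the 14 NK and T cell genes, at 0 in all Ly6C hi libraries. The correlations share the step between the subsets and are given as a description. Ccl2 was most like Emb (Pearson r = 0.957), F13a1 (0.946) and Ly6c2 (0.928), the last pair being genes of Ly6C hi monocytes. Ccl4 was most like Bhlhe40 (0.939) and H2-K1 (0.937), Ccl5 like AW112010 (0.938) and the MHC class II gene H2-Ab1 (0.922), and Xcl1 like Hsd11b1 (0.925) and H2-Ab1 (0.923). Cxcl16 was most like Eif4a2 (0.928) and Acp5 (0.909), Ccl6 like H3f3b (0.916) and Cxcl2 like Plscr1 (0.894).

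Members were then compared among themselves after the mean of each of the 4 groups was subtracted, over the same 19 libraries. Of 45 pairs, 28 had a correlation above 0 and the median was 0.11, with a range of -0.38 to 0.66. Ccl4 and Cxcl2 had a correlation of 0.63, and it was 0.51 within Ly6C hi and 0.77 within Ly6C low. Ccl3 and Ccl6 had 0.61, and Ccl3 with its neighbour Ccl4 had 0.48, made up of -0.29 in Ly6C hi and 0.77 in Ly6C low. Ccl7 and Cxcl16, each at 0 in vehicle mice 12 and 13 of Ly6C hi, had the highest value, 0.66. These values share libraries and depth and carry no test.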

How the data were processed

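RNA was sequenced from 20 libraries, a Ly6C hi and a Ly6C low library from each of 10 mice. Per the methods and the processing notes of the submitters, the authors aligned reads with STAR 2.4.0 to mm10. They counted reads on the constitutive regions of FAST DB genes. The deposited signal per gene is read counts divided by size factors, from DESeq per the processing notes and from DESeq2 per the methods. All values were whole multiples of a step within each library (tolerance 0.006), from which the reads behind them were recovered. Groups were taken from the sample labels.

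Values were tested as log2(normalized count + 1) with limma 3.58.1 in R 4.3.3, with a variance trend over the mean level, on genes with a mean of at least 10 in 1 or more groups, and p-values were adjusted by Benjamini-Hochberg over all genes tested, with a threshold of 0.05. Subsets were compared on within-mouse differences (10 mice), since both libraries came from 1 animal. The residuals of the libraries of a mouse had correlations of 0.00334 to 0.250 (median 0.0338). Treatments were compared as 5 against 5 mice in each subset, and the difference between subsets as 5 against 5 within-mouse differences. Folds in the text are ratios of mean normalized counts, and fitted log2 differences of genes with libraries at 0 depend on the pseudocount and can lie far from these ratios. Exact sign-flip and permutation tests were two-sided and run with Python 3.11.15 and scipy 1.17.1. The fits were also run on simulated counts with the same dispersion for all genes and no mouse effect. Such counts lack the spread in genes detected seen here, so they do not check the fits for it.

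Alternatives were other pseudocounts, filters and normalizations, array weights, genes detected per library as covariate, a variance prior without a trend, no replicate block, leaving out each mouse, and edgeR 4.0.16 on the recovered reads. EdgeR with mouse 15 left out was added after seeing the data, because the step of its Ly6C hi library is close to 1 (0.989) and the recovered reads are less certain there. The 10 genes and the lists were chosen with earlier results of these data known. All 10 members are named, as are other chemokine ligands that passed the threshold or a mean of 100 normalized counts in any group. The 3 genes most similar to each member by Pearson correlation were sought, and those named are some of them. Marker lists are given by counts. The marker, receptor, regulator and immediate early genes named were chosen after their values were seen. The values of 1 gene in these lists are not reported here.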

Additional observations from a re-analysis of the deposited data

Results flagged for a closer look

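In groups of 5 libraries, a library was singled out where its gap to the nearest other exceeded 0.71 of the whole range of the group (Dixon's critical value). Of 39 groups checked over the 10 chemokines, 5 met this. A chance rate of about 1 in 20 holds for independent, normally distributed values. These counts are not of that kind, so the number of groups cannot be set against it. In the Ly6C hi Ac-6-FP group, Ccl4 of mouse 16 was at 2903 normalized counts, below the nearest library at 3300.4, and is the value that comes closest to the vehicle libraries. In the Ly6C low vehicle group, Ccl4 of mouse 11 was at 21635 normalized counts against a nearest value of 10535. In the Ly6C low Ac-6-FP group, Cxcl16 of mouse 18 was at 2460.1 normalized counts against a nearest value of 1086. Ccl7 was at 20.2 normalized counts in mouse 11 of the Ly6C low vehicle group and at 49.4 in mouse 17 of the Ly6C low Ac-6-FP group, with the other 4 libraries of each group at 0. In such a group any value above 0 meets the rule.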

How the results depend on the processing

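Between the subsets, no chemokine changed direction under any alternative, and 6 to 9 of the 10 were called. Without the replicate block, which ignores that both libraries came from 1 mouse, 9 of the 10 were called and Ccl3 was added. Ccl2 lost its call with a pseudocount of 0.1 (adjusted p = 0.0585, limma). All genes called numbered 896, and 1512 with array weights, 1702 with genes detected per library as covariate, 548 with no variance trend, 584 by edgeR and 467 by edgeR without mouse 15. Leaving out 1 mouse gave 642 to 1162 genes (1162 without mouse 13) and 6 to 8 chemokines.

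For Ac-6-FP in Ly6C hi, 13 genes were called, and 5 with no filter, 4 with a filter at 100, 21 with no variance trend, and 0 with quantile normalization, the covariate or edgeR, with or without mouse 15. Leaving out 1 mouse gave 0 to 133 genes (133 without mouse 11) and 0 to 1 chemokines. In Ly6C low, 9 were called, and 2 with a pseudocount of 10, no filter, a filter at 100 or the covariate, 19 with no variance trend, and 0 with quantile normalization or edgeR, with or without mouse 15. Leaving out 1 mouse gave 0 to 103 genes (103 without mouse 11) and 0 chemokines. For the difference between subsets, 0 genes were called, and 2 with a filter at 100, 1 with quantile normalization, 3 with no variance trend, and 0 to 4 with 1 mouse left out, with 0 chemokines. The cause of these shifts was not tested.

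Chemokine values that changed sign were not called in any of these fits. In Ly6C hi, log2 differences were 0.57 for Ccl5 with a pseudocount of 0.1, -0.021 for Ccl2 and 0.28 for Ccl5 with array weights, -0.049 and 0.88 with the covariate, -0.11 for Ccl7 by edgeR, and -0.092 for Ccl2 and -0.26 for Ccl7 by edgeR without mouse 15. With 1 mouse left out they ran from -0.057 to 0.20 for Ccl2, -1.50 to 1.04 for Ccl5, -0.020 to 0.11 for Ccl9 and -0.42 to 0.29 for Cxcl2. In Ly6C low, they were -0.27 for Ccl7 and -0.020 for Ccl5 with quantile normalization, -0.039 for Cxcl16 with array weights, -0.39 for Ccl2 and -0.47 for Ccl7 with the covariate, -0.11 for Ccl2 by edgeR, and -0.29 for Ccl2 and -0.026 for Ccl3 by edgeR without mouse 15. With 1 mouse left out they ran from -0.19 to 2.39 for Ccl2, -0.054 to 0.44 for Ccl3, -0.013 to 0.27 for Ccl5, -0.88 to 1.13 for Ccl7 and -0.10 to 0.40 for Cxcl16. For the difference between subsets, they were 0.41 for Ccl5 with a pseudocount of 0.1, -0.43 for Xcl1 with a pseudocount of 10, -0.0093 for Ccl6 and -0.38 for Xcl1 with quantile normalization, -0.029 for Ccl6 and 0.033 for Ccl9 with array weights, 0.11 for Ccl5 and -0.00034 for Ccl6 with the covariate, and 0.21 for Ccl3 by edgeR without mouse 15. With 1 mouse left out they ran from -2.25 to 0.19 for Ccl2, -0.40 to 0.19 for Ccl3, -1.70 to 1.05 for Ccl5, -0.18 to 0.43 for Ccl6 and -0.78 to 1.67 for Xcl1. For libraries listed at 0, depth leaves room for up to 1.87 to 6.26 normalized counts.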
